A study of Homo sapiens with 8 samples.

Results

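To assess how inhibition of the immunoproteasome affects the other large route of protein degradation, mRNA levels of 50 genes of autophagy and the lysosome were compared between MOLM-13 cells treated with PR-957 and with DMSO. The 50 genes were chosen by name out of 38551 genes in the count table, with earlier results of these data known. They cover autophagosome formation (20 genes), cargo receptors (5), the MiT/TFE transcription factors (3), lysosomal membrane proteins (3), lysosomal hydrolases and their cofactors (16) and subunits of the proton pump (3). Of these, 48 had enough counts to be tested. Of 16 hydrolases 10 were higher after PR-957 (5 without DMSO replicate 2 or without PR-957 replicate 1), where 23.1% of all genes were, with CTSA at 1.95-fold and GLA at 1.77-fold. LAMP1, MCOLN1 and a pair of pump subunits were higher as well, and the pump subunit ATP6V1H was lower. The cargo receptors CALCOCO2, OPTN and NBR1 were lower, CALCOCO2 by 0.61 on the log2 scale (SE 0.05, n = 4 per group). With libraries scaled by their totals alone, only CALCOCO2 of the receptors was called lower. Genes of autophagosome formation moved in both directions, each by less than 1.5-fold.

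Macroautophagy wraps cytoplasm, organelles and protein aggregates into a double-membraned autophagosome, which fuses with the lysosome. Cargo receptors bind ubiquitinated cargo with one domain and lipid-anchored ATG8 proteins of the forming membrane with another. Inside the lysosome, proteases, glycosidases and lipases work at an acidic pH that the vacuolar ATPase maintains, and TFEB, TFE3 and MITF can bind a shared promoter element, called CLEAR, of many lysosomal genes.

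The human line MOLM-13 derives from an acute myeloid leukemia with a KMT2A fusion. All cells were grown under the same conditions and received either 100 nM PR-957 (ONX-0914), an inhibitor of the immunoproteasome subunit PSMB8, or the diluent DMSO for 72 h, with 4 libraries per group of polyA RNA. The comparison rests on 1 cell line, 1 dose and 1 time point.

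Library totals ranged from 16675036 to 23111223 counts. Mitochondrial transcripts took 1.94 to 2.75% of counts in the DMSO libraries and 4.15 to 5.24% in the PR-957 libraries. DMSO replicate 4 stood furthest from its group, with a chi-square per gene of 10.2 to 15.3 against each other DMSO library, where those libraries gave 3.32 to 5.83 among themselves. The myeloid markers CD33, MPO, SPI1, CEBPA and FLT3 were expressed in both groups, whereas the T-cell gene CD3E had 0 counts in every library. Of 6 such myeloid markers MPO and SPI1 were higher, FLT3 and CD4 lower, and CD33 and CEBPA were not called. Of 10 markers of monocyte maturation, 8 were tested, 5 were higher (LYZ, S100A8, S100A9, MNDA, FCN1) and none was lower. ITGAM, FCGR1A and CSF1R were tested and not called. The list summed to 245 to 286 CPM (depth-normalised counts with TMM scaling, in all that follows) in DMSO and 867 to 1131 CPM in PR-957 libraries, with CD14 and VCAN near 0 in both. Most of the sum came from LYZ (153 ± 16.2 and 820 ± 104 CPM, SD, n = 4). FCN1 was low in both groups (0.659 and 1.76 CPM). Of 10 genes listed as markers of other cell types, 3 were tested and 1, PECAM1, was higher. The list summed to 44.5 to 65.6 CPM in DMSO libraries and 84.8 to 88.4 CPM after PR-957. Nearly all of it came from PECAM1 (49.2 ± 9.64 and 83.0 ± 1.85 CPM, SD, n = 4). All libraries expressed PECAM1, so the sum cannot report on other cell types. The part that these shifts have in the differences below was not tested. In such bulk libraries more cells of a kind and more RNA per cell cannot be told apart.

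By the quasi-likelihood test of edgeR (threshold 0.05 after Benjamini-Hochberg adjustment over all genes tested), 27 of the 48 genes were called, or 56.2%, where 46.6% of all 13179 genes tested were. Of these, 19 were higher (39.6%, against 23.1% of all genes) and 8 lower (16.7%, against 23.5% of all genes). With a change of at least 1.5-fold as well, 5 were higher and 1 lower, where 6.80% and 7.00% of all genes were. The median log2 fold change was 0.17 over the 48 genes and 0.003 over all genes. The 4 PR-957 libraries lay entirely above the 4 DMSO libraries for 14 of the 48 genes and entirely below for 9, while 42.5% of all genes showed no overlap in either direction. With library totals in place of TMM, 23 genes were higher and 6 lower, and of all genes 4066 were higher and 2353 lower in place of 3045 and 3098. The number of higher genes was 13 without DMSO replicate 2, 13 without PR-957 replicate 1 and 14 without PR-957 replicate 3.

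**Figure D1:**
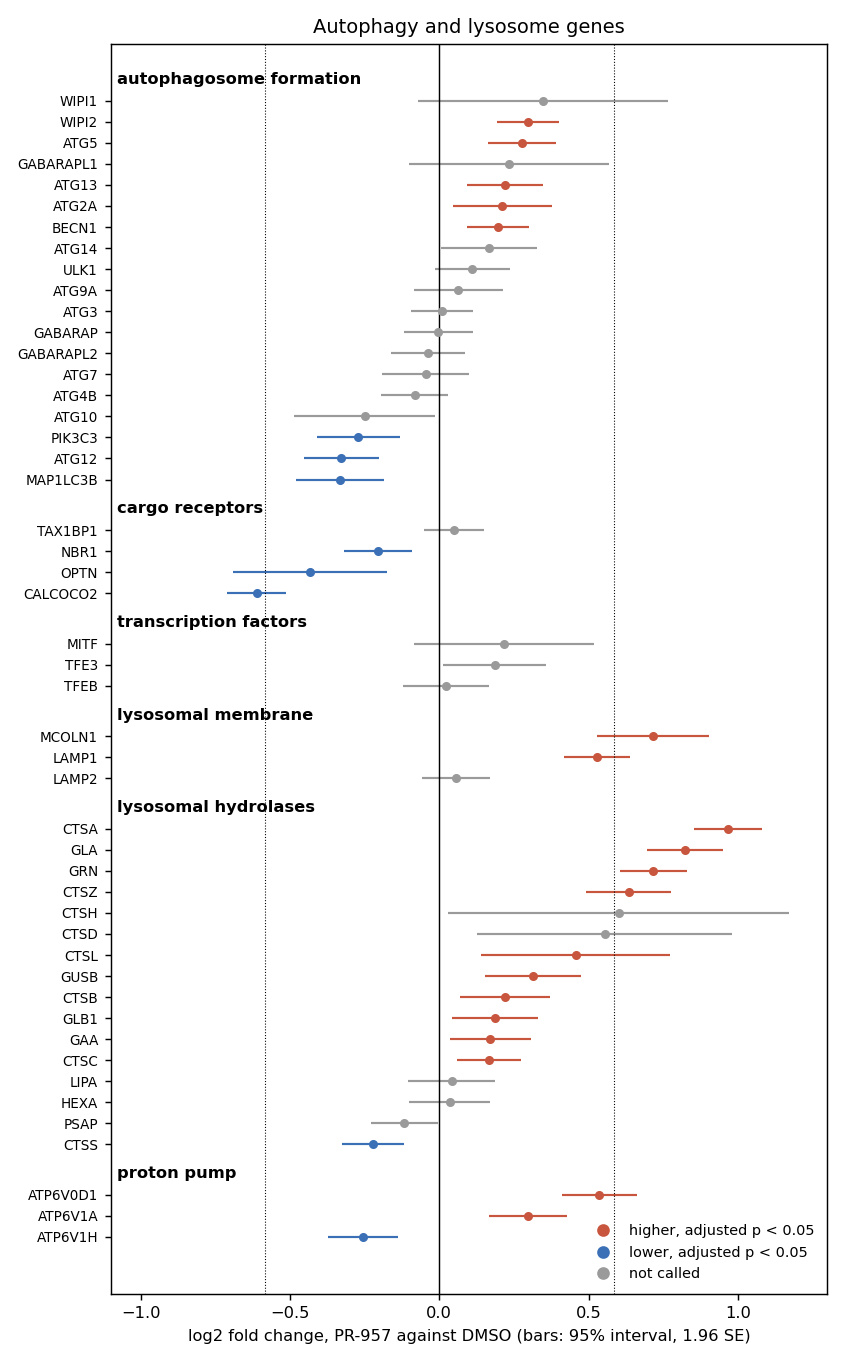
Log2 fold change of the 48 tested genes, PR-957 against DMSO, on the horizontal axis, sorted within each role. Bars are 95% intervals by a normal approximation, narrower than the test allows, and dotted lines mark 1.5-fold. Red is higher and blue lower at an adjusted p under 0.05, and grey is not called. CTSA, GLA, GRN, MCOLN1 and CTSZ lie past the right dotted line, as does CTSH in grey, and CALCOCO2 lies past the left one.

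Calls differed in number and direction by role. Of the hydrolases 10 of 16 were higher and 1 lower, of the lysosomal membrane genes 2 of 3 were higher, and of the pump subunits 2 of 3 were higher and 1 lower. Of the tested cargo receptors 3 of 4 were lower and none higher. Genes of autophagosome formation gave 5 higher (26.3%) and 3 lower (15.8%) of 19, and no transcription factor was called. Of all genes 23.1% were higher and 23.5% lower, so the share higher in autophagosome formation was near that of all genes. The hydrolase count fell to 5 without DMSO replicate 2 or PR-957 replicate 1 and to 6 without PR-957 replicate 3, and the receptor count fell to 1 with library totals and in replicates 1 and 2 alone. Whether one group differed from another was not tested.

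**Figure D2:**
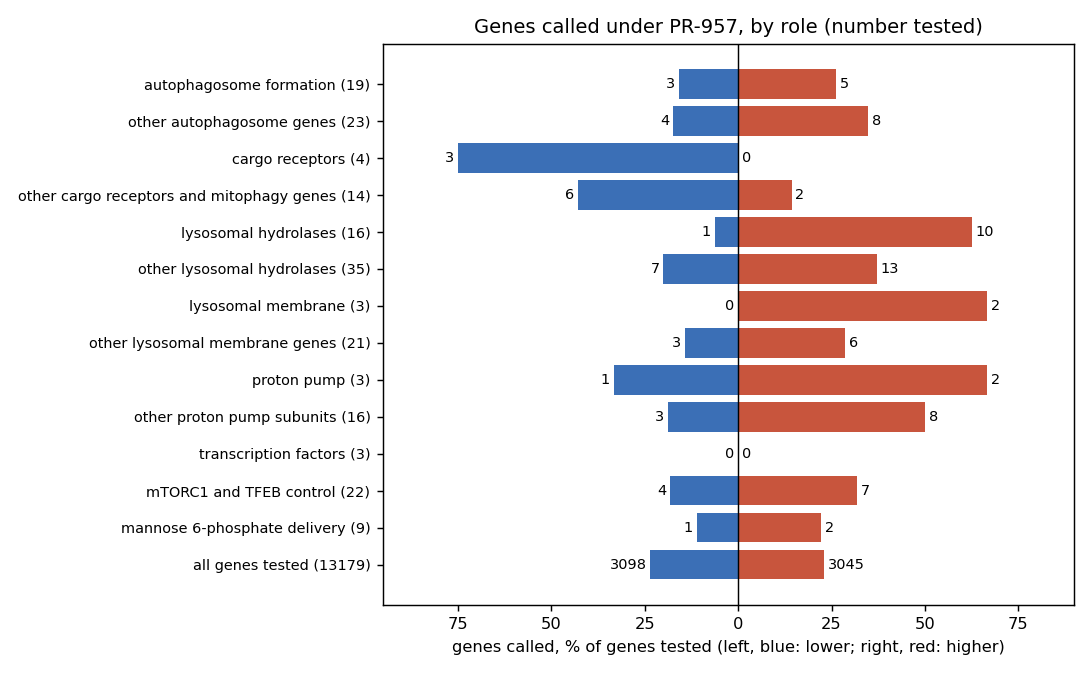
Percent of tested genes called lower (blue, to the left) and higher (red, to the right) in each role group and in lists of further genes of the same pathways, with the number tested in parentheses and the number called beside each bar. Hydrolases reach 62.5% higher and cargo receptors 75.0% lower, where all genes reach 23.1% and 23.5%.

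The transcription factors took the smallest share of counts of all roles. TFEB, which moves to the nucleus when mTORC1 activity falls, had 27.6, 26.9, 29.2 and 29.6 CPM in the DMSO libraries and 31.4, 28.6, 28.7 and 26.4 CPM in the PR-957 libraries. These ranges overlap, and the log2 fold change of 0.02 had a 95% interval of -0.12 to 0.16 (adjusted p = 0.830, edgeR). Its relative TFE3, which shares its DNA element, had 19.4, 18.8, 19.9 and 24.8 CPM in DMSO libraries and 23.7, 22.7, 24.2 and 23.8 CPM after PR-957. All 4 PR-957 libraries were above DMSO replicates 1 to 3 and below DMSO replicate 4, which gave a log2 difference of 0.19 (SE 0.09, adjusted p = 0.0945, edgeR) that became 0.29 without DMSO replicate 4 (adjusted p = 0.00421, edgeR). TFE3 also passed with library totals (adjusted p = 0.0266, edgeR) and in replicates 1 and 2 alone (adjusted p = 0.0283, edgeR). It passed with a term for each replicate number as well, and did not pass in 15 of the 19 alternatives. In replicates 3 and 4 alone the TFE3 difference was 0.09 (adjusted p = 0.594, edgeR). MITF, the lineage factor of pigment and mast cells, had 4.26, 6.01, 5.74 and 4.33 CPM in DMSO libraries and 5.40, 6.11, 5.84 and 6.24 CPM after PR-957. The MITF libraries overlapped (log2 fold change 0.22, SE 0.15, adjusted p = 0.259, edgeR). The mRNA level does not report where in the cell these factors are.

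To see which of the 50 genes carry the element that these factors bind, RefSeq promoter windows of 300 bases (GRCh38.p14, from 250 bases before to 50 bases after the start site) were searched on both strands for TCACGTG, the core of CLEAR. A window was found for 43 genes and 8 of them held the letters (18.6%), where 1043 of 27305 windows of all genes did (3.82%). They were LAMP1, MCOLN1, CTSA, CTSD, GAA, ATP6V0D1, ATG14 and ATG3. Of genes called higher 5 of 17 with a window held the core (29.4%), of those called lower 0 of 6, and of those tested but not called 3 of 18. In the further lists described last the core was in 3 of 8 windows (37.5%) for mannose 6-phosphate delivery. For mTORC1 and TFEB control it was in 6 of 19 (31.6%). It was in 7 of 26 (26.9%) for other hydrolases and 3 of 16 (18.8%) for other pump subunits. The lists of other receptors (1 of 10, 10.0%), autophagosome genes (2 of 21, 9.52%) and membrane genes (2 of 21, 9.52%) were lower. Whether the core goes with the direction of change was not tested. Windows were found for all 3 transcription factors and all 5 cargo receptors, and none of them held it. The letters TGATGNAA, a core for ATF4 with C/EBP partners, were in 0 of the 43 windows and in 3.67% of all. These are matches of letters only, and binding was not measured. For each of the 8 genes 1 match before the RefSeq start site is shown with its surroundings, 5′ to 3′ on the strand of the gene. The CTSA match lies inside the gene as counted, which begins at chr20:45890144. Capitals mark the core, which reads CACGTGA in CTSD and ATG14, where it lies on the opposite strand.
LAMP1 at chr13:113297199-113297228, plus strand: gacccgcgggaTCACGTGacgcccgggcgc
MCOLN1 at chr19:7522571-7522600, plus strand: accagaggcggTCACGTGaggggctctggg
CTSA at chr20:45891298-45891327, plus strand: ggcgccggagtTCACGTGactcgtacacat
GAA at chr17:80101493-80101522, plus strand: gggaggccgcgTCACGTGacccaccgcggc
ATP6V0D1 at chr16:67481199-67481228, minus strand: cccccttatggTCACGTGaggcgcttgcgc
CTSD at chr11:1763956-1763985, minus strand: ccggccgcgccCACGTGAccggtccgggtg
ATG14 at chr14:55411833-55411862, minus strand: aaacaaaatccCACGTGActggctctcctc
ATG3 at chr3:112561963-112561992, minus strand: cctttctcacgTCACGTGccgggagagtct
In LAMP1, MCOLN1, CTSA, GAA and ATP6V0D1 the core is followed by A, so that the same letters also read from the opposite strand. The core of LAMP1 shown here starts 29 bases before the start site, further copies start 193, 177, 160 and 143 bases before it, and 1 more starts 2 bases before it and runs across it. Of the genes with the core, LAMP1, MCOLN1, CTSA, GAA and ATP6V0D1 were higher and CTSD, ATG14 and ATG3 were not called, while GLA, GRN and CTSZ were higher without the core in their windows.

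Among the lysosomal membrane genes, MCOLN1 encodes the calcium release channel TRPML1 of the lysosome (chr19:7522624-7534009 in hg38). Its level was 14.3, 15.5, 14.7 and 14.4 CPM in the DMSO libraries and 27.9, 26.0, 22.6 and 20.4 CPM in the PR-957 libraries. Every PR-957 library was above every DMSO library, and PR-957 replicates 1 and 2 were above replicates 3 and 4. The log2 fold change was 0.72 (SE 0.10, adjusted p = 5.69e-06, edgeR), with 0.85 in replicates 1 and 2 alone and 0.56 in replicates 3 and 4 alone. LAMP1, a heavily glycosylated protein that lines the lysosomal membrane (chr13:113297239-113323672), had 160, 163, 161 and 141 CPM in DMSO libraries and 228, 217, 222 and 234 CPM after PR-957. The groups did not overlap, DMSO replicate 4 was the lowest library, and the log2 fold change was 0.53 (SE 0.06, adjusted p = 3.97e-07, edgeR). LAMP2, its sister protein and the receptor of chaperone-mediated autophagy in one isoform, had 151, 149, 140 and 146 CPM against 154, 167, 140 and 148 CPM. These LAMP2 values overlapped, with a log2 fold change of 0.06 and a 95% interval of -0.06 to 0.17 (adjusted p = 0.452, edgeR), which lies wholly below that of LAMP1 (0.42 to 0.64).

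Lysosomal hydrolases held the strongest increases of the 50 genes. CTSA encodes protective protein, a carboxypeptidase that keeps beta-galactosidase and neuraminidase stable in a shared complex (chr20:45890144-45898820). CTSA had 46.2, 44.9, 44.4 and 40.9 CPM in the DMSO libraries and 87.8, 83.3, 88.3 and 84.9 CPM in the PR-957 libraries. The groups were far apart relative to their spread (log2 fold change 0.97, SE 0.06, adjusted p = 1.32e-10, edgeR). Of the CTSA exonic bases 43.4% overlap genes on the opposite strand (PLTP, NEURL2, SPATA25). Among the other tested genes such overlap was largest for BECN1 (34.8%, CNTD1), ATG7 (17.0%, VGLL4) and LAMP1 (15.5%, GRTP1). Fragments were counted by strand, and the sources used here do not say whether the library kit marked strand. GLB1, the beta-galactosidase held in that complex, was at 28.1 ± 1.83 CPM in DMSO libraries and 32.0 ± 1.99 CPM (SD, n = 4) after PR-957, a log2 fold change of 0.19 (adjusted p = 0.0421, edgeR). GLB1 shares 8.70% of its exonic bases with TMPPE on the same strand.

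GLA, the alpha-galactosidase that is deficient in Fabry disease (chrX:101397791-101408013), had 30.3, 29.8, 33.5 and 30.01 CPM in DMSO libraries and 54.8, 52.1, 57.9 and 53.5 CPM after PR-957. No library of one group came near the other, with DMSO replicate 3 the highest control, and the log2 fold change was 0.82 (SE 0.06, adjusted p = 5.04e-09, edgeR). GRN encodes progranulin, a secreted precursor that is cut into granulins in the lysosome (chr17:44345086-44353106). GRN had 114, 113, 130 and 122 CPM in DMSO libraries and 206, 195, 197 and 190 CPM after PR-957. The PR-957 libraries were all higher, by 0.72 on the log2 scale (SE 0.06, adjusted p = 5.95e-09, edgeR). CTSZ, a carboxypeptidase also called cathepsin X (chr20:58995185-59007254), had 79.0, 74.5, 90.01 and 78.9 CPM in DMSO libraries and 119, 111, 132 and 138 CPM after PR-957. These CTSZ values did not overlap either (log2 fold change 0.63, SE 0.07, adjusted p = 1.17e-06, edgeR).

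**Figure D3:**
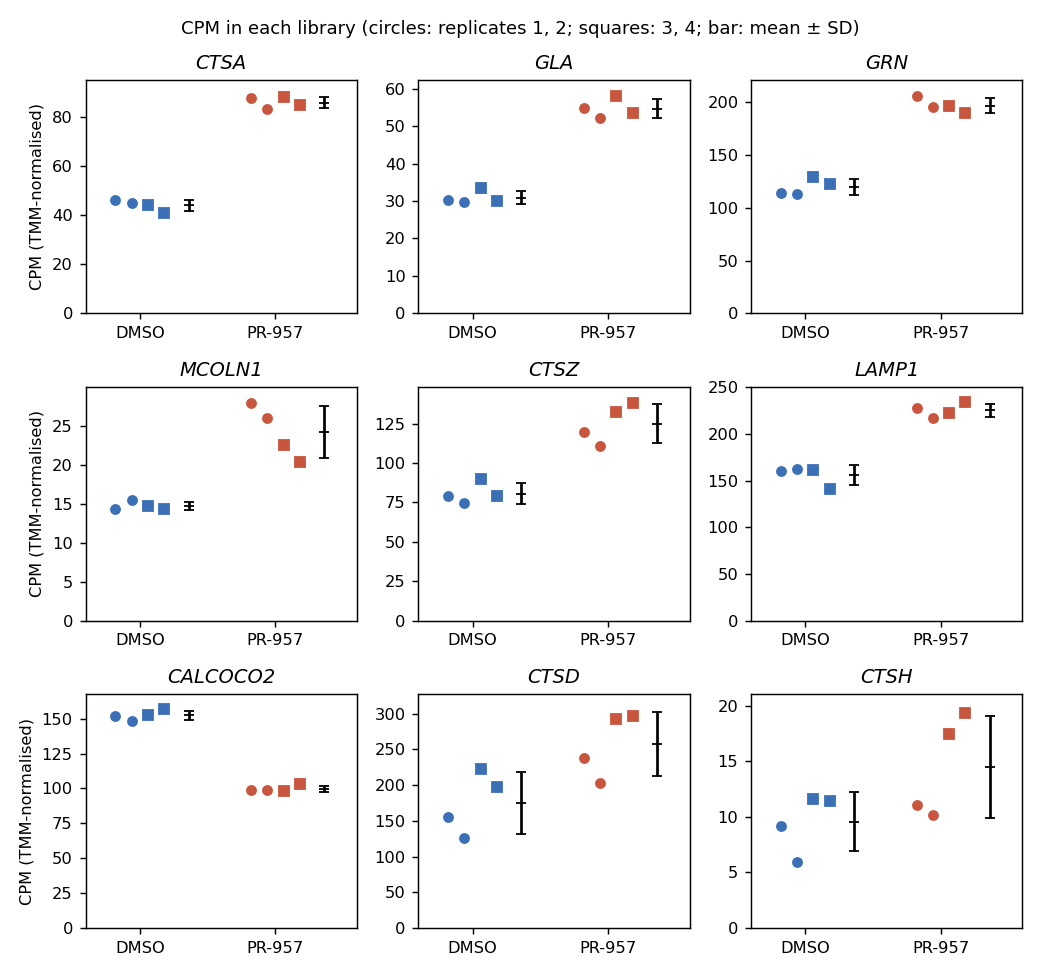
CPM (TMM-normalised, vertical axes from 0) of 9 genes in each DMSO (blue) and PR-957 (red) library; circles are replicates 1 and 2, squares replicates 3 and 4, and the bars beside them are mean ± SD (n = 4). CTSA, GLA, GRN, MCOLN1, CTSZ and LAMP1 are higher and CALCOCO2 lower in every PR-957 library, whereas CTSD and CTSH overlap and are higher in replicates 3 and 4 of both groups.

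CTSD and CTSH showed large differences with a wide spread. CTSD, the main aspartic protease of the lysosome, had 155, 126, 223 and 198 CPM in DMSO libraries and 238, 203, 293 and 297 CPM after PR-957. In both groups replicates 3 and 4 were above replicates 1 and 2, and DMSO replicate 3 was above PR-957 replicate 2. The log2 fold change of 0.55 (SE 0.22) did not pass with all libraries (adjusted p = 0.0808, edgeR), while it was 0.65 in replicates 1 and 2 alone (adjusted p = 3.33e-07, edgeR) and 0.48 in replicates 3 and 4 alone (adjusted p = 0.000182, edgeR). CTSH, an aminopeptidase of the cysteine class, had 9.21, 5.90, 11.6 and 11.4 CPM in DMSO libraries and 11.0, 10.2, 17.4 and 19.4 CPM after PR-957. The same split of the replicates was seen (log2 fold change 0.60, SE 0.29, adjusted p = 0.134, edgeR), with 0.50 in replicates 1 and 2 alone (adjusted p = 0.0136, edgeR) and 0.67 in replicates 3 and 4 alone (adjusted p = 0.00117, edgeR). With a term for replicates 1 and 2 against 3 and 4 the adjusted p was 2e-06 for CTSD and 9.73e-05 for CTSH (edgeR). The labels give no reason for this split, and the term takes out the same pattern that these values show. Each pair alone rests on 2 libraries per group. Over all genes, DMSO replicates 1 and 3 were the closest DMSO libraries (chi-square per gene 3.32). DMSO replicates 3 and 4 were further apart (10.2). Among PR-957 libraries, replicates 1 and 2 were the closest (4.431) and replicates 1 and 4 the furthest apart (9.085). PR-957 replicates 3 and 4 gave 5.404 and replicates 1 and 3 gave 5.355.

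The other hydrolases are given with their log2 fold changes in parentheses. GUSB (beta-glucuronidase, log2 fold change 0.31, SE 0.08, adjusted p = 0.00508, edgeR) was higher, and several GUSB pseudogenes are in the table, of which GUSBP11 held 2734 counts, so that its count is uncertain. The cysteine proteases CTSL (0.46, SE 0.16), CTSB (0.22, SE 0.08) and CTSC (0.17, SE 0.05, a dipeptidyl peptidase that activates granule proteases) and the glycogen-degrading alpha-glucosidase GAA (0.17, SE 0.07) were also higher, at adjusted p between 0.0180 for CTSC and 0.0495 for GAA. CTSB has a second placement outside its chromosome in the counting table, so its count may be incomplete, and it differed by 0.43 (log2) in replicates 1 and 2 alone and by 0.03 in replicates 3 and 4 alone. CTSS, the protease that trims the invariant chain of MHC class II, was the 1 hydrolase called lower, at 134 ± 5.35 CPM in DMSO libraries and 115 ± 3.74 CPM (SD, n = 4) after PR-957, lower in 4 of 4 libraries by 0.22 on the log2 scale (adjusted p = 0.00200, edgeR). HEXA (0.03), the acid lipase LIPA (0.04) and the saposin precursor PSAP (-0.12) were not called, with adjusted p from 0.104 for PSAP to 0.704 for HEXA. Of the 10 increases 5 were left without DMSO replicate 2, 5 without PR-957 replicate 1 and 6 without PR-957 replicate 3. Each of GAA and GLB1 lost the call without any of 6 libraries in turn, CTSB without any of 5, CTSL without any of 4 and CTSC without DMSO replicate 2 or PR-957 replicate 1, at adjusted p up to 0.177 for GAA (edgeR). CTSD passed without DMSO replicate 3 (0.69, adjusted p = 0.0420, edgeR). CTSA, GLA, GRN, CTSZ and GUSB passed in each of the 19 alternative analyses.

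The vacuolar ATPase consists of the V1 sector, which splits ATP, and the V0 sector, which passes protons through the membrane. ATP6V0D1, the V0 subunit that joins the rotor to V1 (chr16:67438019-67481157), had 40.8, 40.2, 39.8 and 41.5 CPM in DMSO libraries and 63.8, 60.2, 58.2 and 53.0 CPM after PR-957. It was higher in 4 of 4 libraries, by 0.54 on the log2 scale (SE 0.06, adjusted p = 1.47e-06, edgeR). ATP6V1A, the catalytic subunit of V1 (chr3:113747035-113812056), had 38.7, 39.9, 39.7 and 38.8 CPM in DMSO libraries and 43.6, 52.6, 50.3 and 46.2 CPM after PR-957. Again no libraries overlapped (log2 fold change 0.30, SE 0.07, adjusted p = 0.00113, edgeR). ATP6V1H, which couples V1 to V0 and halts free V1, had 55.2, 49.8, 56.9 and 55.5 CPM in DMSO libraries and 46.2, 46.0, 45.9 and 44.0 CPM after PR-957. ATP6V1H was thus lower in 4 of 4 libraries, by 0.26 on the log2 scale (SE 0.06, adjusted p = 0.00178, edgeR), with PR-957 replicate 4 the lowest. In replicates 1 and 2 alone it fell by 0.19 without passing (adjusted p = 0.0627, edgeR).

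Of the 4 tested cargo receptors 3 were lower (75.0%, where 23.5% of all genes were). CALCOCO2 encodes NDP52, a receptor for bacteria and damaged mitochondria (chr17:48831035-48865245), and had 152, 148, 153 and 157 CPM in DMSO libraries and 98.8, 99.1, 98.1 and 103 CPM after PR-957. The groups were separate and narrow (log2 fold change -0.61, SE 0.05, adjusted p = 1.13e-08, edgeR), and the value ranged from -0.63 to -0.53 over the alternatives. OPTN, optineurin, a mitophagy receptor that is phosphorylated by TBK1 (chr10:13100082-13138308), had 18.9, 21.4, 17.8 and 29.0 CPM in DMSO libraries and 16.7, 17.5, 15.0 and 15.7 CPM after PR-957. All PR-957 libraries were lower, yet PR-957 replicate 2 and DMSO replicate 3 nearly met, and DMSO replicate 4 was the highest (log2 fold change -0.43, SE 0.13, adjusted p = 0.0141, edgeR). The OPTN value was -0.26 without DMSO replicate 4 (adjusted p = 0.0246, edgeR), and without PR-957 replicate 4 it was -0.42 and not called (adjusted p = 0.0588, edgeR). NBR1, a receptor for ubiquitinated aggregates and peroxisomes, was at 61.4 ± 2.54 CPM in DMSO libraries and 53.3 ± 1.78 CPM (SD, n = 4) after PR-957, lower by 0.21 on the log2 scale (adjusted p = 0.00627, edgeR). TAX1BP1, the most abundant of the tested receptors, was at 196 ± 7.30 and 203 ± 5.65 CPM, a log2 fold change of 0.05 with a 95% interval of -0.05 to 0.15 (adjusted p = 0.463, edgeR). With library totals in place of TMM, CALCOCO2 alone was called lower (OPTN adjusted p = 0.0506, edgeR), TAX1BP1 was called higher, and no receptor changed direction. In replicates 1 and 2 alone, 1 receptor was lower. The best known receptor, SQSTM1 (p62), had 3, 2, 1 and 10 counts in DMSO and 2, 1, 4 and 7 counts in PR-957 libraries. It has a second placement outside its chromosome in the counting table, where fragments that match both places would not be counted, so that its level is not known here.

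Autophagosome formation starts with the ULK1 kinase complex and the supply of lipid and of phosphatidylinositol 3-phosphate. Of 9 genes of these steps 4 were higher (44.4%) and 1 lower (11.1%), where 23.1% and 23.5% of all genes were. WIPI2, which reads that lipid and recruits ATG16L1, was at 68.6 ± 0.764 CPM in DMSO libraries and 84.3 ± 3.29 CPM (SD, n = 4) after PR-957 (log2 fold change 0.30, SE 0.05, adjusted p = 0.000154, edgeR). ATG13 (0.22, ULK1 complex), the lipid transfer protein ATG2A (0.21) and BECN1 (0.20, a subunit of the lipid kinase complex) were also higher (log2 fold changes in parentheses), at adjusted p from 0.00492 for BECN1 to 0.0471 for ATG2A. The ATG2A call was lost without any of 6 libraries in turn, at adjusted p of up to 0.173 without PR-957 replicate 2 (edgeR). PIK3C3, the catalytic subunit of the same complex, was lower by 0.27 on the log2 scale (SE 0.07, adjusted p = 0.00402, edgeR), at 42.9 ± 3.40 CPM against 35.6 ± 2.21 CPM (SD, n = 4), with no overlap. ATG14, which directs the complex to autophagy, was not called (0.17, adjusted p = 0.103, edgeR). PIK3R4, the regulatory subunit of the complex, is among the further genes described last and was named after its values were seen, and it was higher (log2 fold change 0.38, adjusted p = 0.00297, edgeR). WIPI1, a relative of WIPI2, had 2.19, 2.78, 2.96 and 4.24 CPM in DMSO libraries and 3.34, 3.13, 4.52 and 4.67 CPM after PR-957. DMSO replicate 4 lay within the PR-957 range, and the log2 fold change of 0.35 (SE 0.21) was not called (adjusted p = 0.190, edgeR), although it was 0.56 without that library (adjusted p = 0.0317, edgeR). The kinase ULK1 (0.11) and the scramblase ATG9A (0.06) were not called.

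The conjugation machinery joins ATG12 to ATG5 and ATG8 proteins to lipid. ATG5 was higher, at 50.1 ± 1.98 CPM in DMSO libraries and 60.6 ± 2.21 CPM (SD, n = 4) after PR-957 (log2 fold change 0.28, SE 0.06, adjusted p = 0.000659, edgeR). Its partner ATG12 was lower, at 62.5 ± 4.04 and 49.9 ± 2.80 CPM (log2 fold change -0.33, SE 0.06, adjusted p = 0.000312, edgeR). Both were without overlap. ATG3 (0.01), ATG4B (-0.08), ATG7 (-0.05) and ATG10 (-0.25) were not called. The sign of ATG7 turned with library totals and in replicates 1 and 2 alone, and that of ATG3 in replicates 3 and 4 alone and without DMSO replicate 2 or 4. ATG16L1, the scaffold of the ATG5 conjugate, had 5, 2, 1 and 4 counts in DMSO and 8, 16, 3 and 10 counts in PR-957 libraries, with a second placement like that of SQSTM1, and was not tested. Of the ATG8 family, MAP1LC3B, the source of the LC3 protein used to track autophagosomes (chr16:87392336-87404774), had 44.5, 40.1, 44.2 and 48.3 CPM in DMSO libraries and 37.4, 36.2, 30.6 and 37.0 CPM after PR-957. All PR-957 libraries were lower (log2 fold change -0.33, SE 0.08, adjusted p = 0.00132, edgeR), and a near copy of the gene, MAP1LC3B2, held 30 counts over all libraries. GABARAP (0.00) and GABARAPL2 (-0.04) were not called and turned sign with library totals and in replicates 1 and 2 alone, GABARAP also with upper-quartile scaling and without single libraries, and GABARAPL1 (0.23, SE 0.17) was not called at a level of 6.03 ± 1.39 CPM in DMSO libraries and 7.13 ± 1.38 CPM (SD, n = 4) after PR-957.

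**Figure D4:**
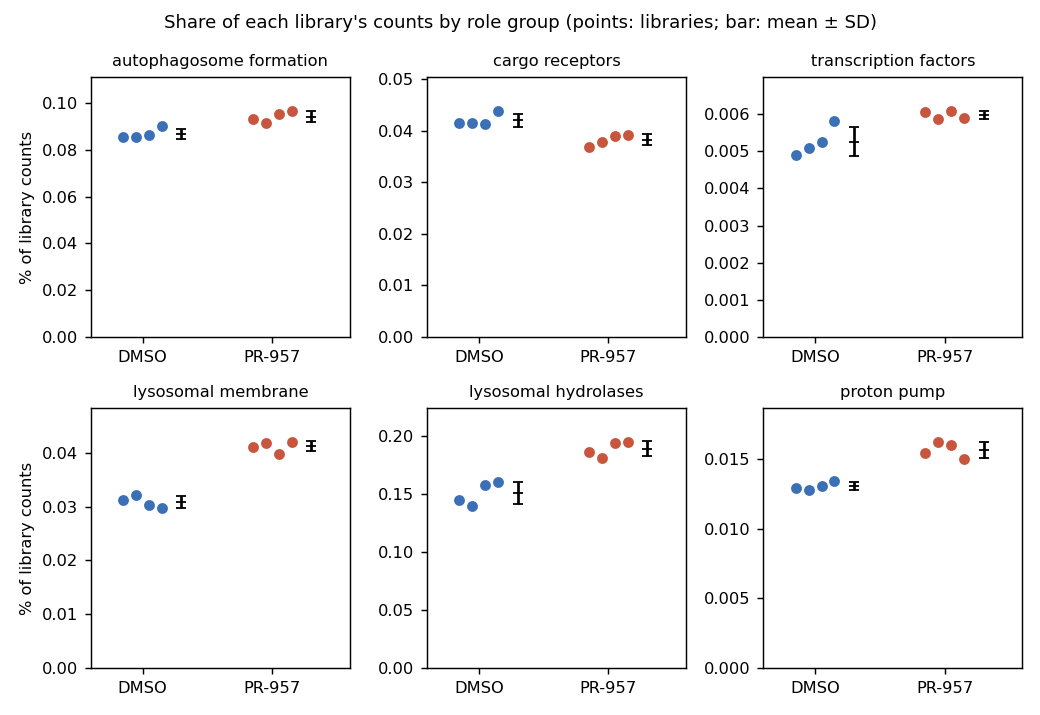
Summed counts of each role group as percent of all counts in a library (vertical axes from 0), for 4 DMSO (blue) and 4 PR-957 (red) libraries, with mean ± SD beside the points. PR-957 libraries lie above DMSO libraries for every group but the cargo receptors, where they lie below.

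As a share of all counts, the hydrolases took 0.140 to 0.160% of a DMSO library and 0.181 to 0.195% of a PR-957 library, a ratio of the means of 1.25. The lysosomal membrane genes went from 0.0309 ± 0.00106% to 0.0412 ± 0.000985% (SD, n = 4) and the pump subunits from 0.0131 ± 0.000287% to 0.0157 ± 0.000562%. Cargo receptors took 0.0412 to 0.0438% of DMSO libraries and 0.0369 to 0.0393% of PR-957 libraries. Autophagosome genes took 0.0868 ± 0.00217% and 0.0941 ± 0.00237% (SD, n = 4). These shares are of raw totals, on which the median log2 fold change of all genes was 0.08. Per kilobase of exon, PSAP was the highest of the tested genes in DMSO (147 CPM per kb), followed by GABARAP (95.02) and CTSD (85.4), and in PR-957 libraries CTSD stood at 125 CPM per kb and PSAP at 136. At the lower end were WIPI1 (0.682), MITF (0.808) and ATG10 (1.12 CPM per kb in DMSO).

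Further genes of the same pathways were taken from lists that do not hold any of the 50 genes. Of 140 tested, 46 were higher (32.9%, against 23.1% of all genes) and 28 lower (where 23.5% of all genes were), with a median log2 fold change of 0.08. By list, between 14.3% (receptors) and 37.1% (hydrolases) were higher, apart from the pump list with 8 of 16, and between 11.1% (mannose 6-phosphate delivery) and 42.9% (receptors) lower. The shares higher of the membrane (28.6%) and mannose 6-phosphate (22.2%) lists were near that of all genes. Among other pump subunits 8 of 16 were higher and 3 lower, from ATP6V0E2 at 1.82 (SE 0.25, 1.31 ± 0.388 CPM in DMSO libraries and 4.60 ± 1.34 CPM after PR-957) to ATP6V1C2 at -0.68 (SE 0.20), the largest called changes of that list in each direction. Among other hydrolases 13 of 35 were higher and 7 lower, with a median of 0.18. DNASE2, the acid nuclease that digests DNA of engulfed cells, was the lowest, with 65.6, 64.9, 69.3 and 58.0 CPM in DMSO libraries and 23.3, 24.3, 22.1 and 19.7 CPM after PR-957. Its groups were far apart (log2 fold change -1.53, SE 0.08, adjusted p = 5.85e-12, edgeR), a larger change than that of any of the 16 hydrolases above.

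Of 14 other receptors and mitophagy genes 6 were lower (42.9%) and 2 higher (14.3%), where 23.5% and 23.1% of all genes were. CCPG1, a receptor for autophagy of the endoplasmic reticulum, had 39.0, 38.7, 46.2 and 40.1 CPM in DMSO libraries and 13.9, 12.4, 14.1 and 15.0 CPM after PR-957. This was the lowest value of the list (log2 fold change -1.57, SE 0.08, adjusted p = 1.93e-11, edgeR). PINK1, the kinase that marks damaged mitochondria, was higher instead, at 7.60 ± 1.048 CPM in DMSO libraries and 15.7 ± 1.87 CPM (SD, n = 4) after PR-957 (log2 fold change 1.04, SE 0.12, adjusted p = 8.7e-07, edgeR). Other autophagosome genes gave 8 higher and 4 lower of 23 (34.8% and 17.4%). TMEM41B, a lipid scramblase of the endoplasmic reticulum, was lowest at -0.60 (SE 0.08). PLEKHM1 was highest at 1.22 (SE 0.37), below 1.3 CPM in every library and with a second placement. Other lysosomal membrane genes gave 6 higher and 3 lower of 21, from SLC36A1, an amino acid transporter, at 0.73 (SE 0.09) to LMBRD1, which takes part in cobalamin export, at -0.71 (SE 0.09). Genes of mTORC1 and of TFEB control gave 7 higher and 4 lower of 22 (31.8% and 18.2%). Among them MTOR, the kinase itself, was higher by 0.58 (SE 0.06) and MLST8, a subunit of its complex, lower by 0.61 on the log2 scale (SE 0.07). In mannose 6-phosphate delivery, which carries hydrolases to the lysosome, 2 of 9 were higher and 1 lower, with NAGPA, the uncovering enzyme, at 0.58 (SE 0.09) and the receptor IGF2R at -0.32 (SE 0.06).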

How the data were processed

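RNA-sequencing counts of 8 MOLM-13 libraries were used, 4 of cells treated with DMSO and 4 with PR-957, grouped by sample title. The deposited values were raw counts of fragments per gene. Per the labels and file headers, the authors trimmed reads with Trimmomatic 0.39, aligned them to hg38 with STAR 2.7.10a and counted them with featureCounts 2.0.1 on the reverse strand, without fragments that map to several places. The counting command named 16 libraries, of which the table held 8. The 6 gene rows without values were left out, and 3 gene names had been turned into dates. A second deposited table holds the authors' own DESeq2 comparison (mean count, log2 fold change and p-values) and was not used.

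Counts were tested in R 4.3.3 with edgeR 4.0.16 (TMM scaling, filterByExpr, glmQLFit with robust estimation, glmQLFTest, two-sided, no covariate) on 13179 genes, with Benjamini-Hochberg adjustment over all of them. SE was taken from F (the size of the log2 fold change over its square root). Intervals of 95% use this SE with a normal approximation and are narrower than the test allows. That of CTSH was 0.03 to 1.17 at an unadjusted p = 0.0772 (edgeR). A count of 0 was read as at most 3 counts, or 0.130 to 0.180 CPM by library, and covers counting error only. The labels do not say whether replicates came from separate cultures, so p-values measure the spread between these libraries, which may be technical. No pair of replicates agreed within sampling noise (lowest chi-square per gene 3.32, where noise gives about 1).

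The 50 genes, the further pathway lists and the marker lists were chosen with earlier results of these data known. Values per library were given for genes called at 1.5-fold or more, for the 2 largest log2 fold changes of each role, for all pump subunits and transcription factors, and for the largest call in each direction in each further list. A gene that this rule takes in is not reported here. LAMP2, ATG16L1 and SQSTM1 were added for their roles, and per-library values of other genes outside this rule were chosen after they were seen. Alternatives were DESeq2 1.42.0, limma-voom (limma 3.58.1), RLE, upper-quartile and library-total scaling, no filter or a filter of 1 CPM in 4 libraries, a replicate block, a term for replicates 1 and 2 against 3 and 4, each of these pairs alone, and leaving out each library. The fit was tested on simulated data. Gene coordinates are those of the count table, and promoter windows are RefSeq's.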

Additional observations from a re-analysis of the deposited data

Results flagged for a closer look

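Among 96 groups of 4 libraries, 6 held a library whose gap to the nearest other was large for the range of its group by Dixon's test, where chance gives about 1 in 20 groups. In DMSO replicate 4, ULK1 was high at 52.95 CPM (others 49.29 to 49.9) and LAMP1 low at 140.6 CPM (others 159.8 to 162.6). GLA was high in DMSO replicate 3 at 33.51 CPM (others 29.79 to 30.31). CTSC was high in PR-957 replicate 1 at 205.8 CPM (others 186.7 to 189.6). In PR-957 replicate 4, GLB1 was high at 34.98 CPM (others 30.8 to 31.31) and ATP6V1H low at 44.03 CPM (others 45.89 to 46.24).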

How the results depend on the processing

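No called gene changed direction in any of the 19 alternatives, 14 of the 27 kept the call in all of them and 13 lost it in at least one. Of 21 genes not called, 9 passed in at least one. Counts that moved by over 1.5 times were as follows. In replicates 1 and 2 alone, 4 genes were lower in all, 3 autophagosome genes and 1 transcription factor higher, and 1 receptor and 0 pump subunits lower. In replicates 3 and 4 alone, 3 autophagosome genes were higher and 2 hydrolases lower. Library totals alone gave 1 receptor and 1 transcription factor higher and 1 receptor lower. Leaving out 1 library gave 5 to 9 hydrolases higher and 0 to 1 transcription factors higher, the latter without DMSO replicate 4. Counts that stayed within 1.5 times when 1 library was left out were 13 to 19 genes higher and 7 to 8 lower in all. Among the further pathway genes these were 41 to 50 higher and 25 to 31 lower. The cause of the moved counts was not tested.

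Same-numbered libraries deviated together at r = 0.151, 0.213, 0.0985 and 0.198 for replicates 1 to 4. PR-957 replicate 3 correlated best with DMSO replicate 4, each other library with its own number. The labels do not say whether the numbers mark pairs. The main test did not use them, so a pairing, if there was one, was left out of its p-values. With the replicate block, 22 genes were higher and 8 lower, with 12 hydrolases and 1 transcription factor (TFE3) higher.

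Signs turned for 7 genes, none of them called. With library totals alone log2 fold changes became 0.0322 for ATG7, 0.0751 for GABARAP and 0.0395 for GABARAPL2, and with upper-quartile scaling 0.0076 for GABARAP. In replicates 1 and 2 alone they were 0.0097 for ATG7, 0.0393 for GABARAP and 0.0303 for GABARAPL2, and in replicates 3 and 4 alone -0.0015 for ATG3, -0.0968 for TFEB and -0.1499 for LIPA. Leaving out 1 library gave -0.0163 to 0.0372 for ATG3, -0.0475 to 0.0299 for GABARAP, -0.027 to 0.0572 for TFEB, -0.0185 to 0.0706 for HEXA and -0.0193 to 0.0998 for LIPA. ATG16L1 and SQSTM1, at 16 counts or fewer per library and each with a second placement, allow no statement.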
